A study of Mus musculus with 30 samples.

Results

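The 45 genes described here serve DNA replication and mitosis. They were found by symbol in the normalized count tables of bone marrow-derived macrophages (BMDMs) and of retinal pigment epithelium (RPE), each of which lists 55573 genes, and all 45 were present in both. BMDM cultures and RPE cells were taken from C57BL/6 wild-type mice (B6 WT) and from 3 lines without functional MERTK, the receptor tyrosine kinase with which phagocytes take up apoptotic cells and photoreceptor outer segments. Mertk-/-V1 mice were made in embryonic stem cells of another mouse strain and backcrossed to B6, and they keep a donor-strain stretch of chromosome 2 around Mertk, together with a neomycin cassette. Mertk-/-V2 mice lost 1 kinase-domain exon from a floxed allele of C57BL/6NJ origin, through Rosa26-ERT2Cre and 4-hydroxytamoxifen in the germline of earlier animals. Mertk-/-V3 mice lost 2 exons by CRISPR/Cas9 in fertilized C57BL/6NJ eggs. In the paper's genome-wide marker analysis the Mertk-/-V2 and Mertk-/-V3 lines mix C57BL/6J and C57BL/6NJ genome, with more C57BL/6NJ in Mertk-/-V3. The wild-type strain is listed as C57BL/6J, so substrain and knockout cannot be told apart in those lines. BMDMs came from 3 cultures of each genotype, grown from marrow of adult mice in L929-conditioned medium. RPE cells, shaken off the posterior eyecup at postnatal day 25, came from 6 samples each of B6 WT and Mertk-/-V1 and 3 each of the other two lines. The labels call them biological replicates. All 3 knockouts of a tissue were compared with the same B6 WT libraries, so the comparisons are not independent of each other. Of the members, 6 lie on chromosome 2, all outside the donor-strain stretch.

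A dividing cell passes from G1 into S phase. In G1, D-type and E-type cyclins free E2F transcription factors from pocket proteins, and the MCM helicase is loaded before S phase begins. In S phase the helicase is activated and DNA is built from nucleotides. Cyclin A and cyclin B with CDK1 then drive mitosis, and the anaphase-promoting complex ends it. Marrow macrophage precursors divide in culture under the macrophage growth factor that L929 cells secrete, whereas the pigment cells of the adult RPE have left the cycle. The members were read as 5 groups by role: 7 G1 regulators, 11 genes of replication licensing and the helicase, 4 of nucleotide supply, 11 mitotic kinases, cyclins and their regulators, and 12 of chromosomes, spindle and cytokinesis.

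Many cell cycle promoters share short elements, and 4 promoters are printed: those of Top2a, Cdk1 and Cenpf, which were called lower in BMDMs, and that of Mcm5, from the replication group, where no gene was called. Each sequence is from RefSeq on the GRCm38.p6 build and runs from 250 bases before the start to 50 bases after it, 300 bases in all. Capitals mark a CCAAT box (CCAAT or ATTGG), a cell cycle homology element (CHR; TTTGAA or TTCGAA) and an E2F site (TTTCCCGC, TTTGGCGC, TTTCGCGC or TTTGCCGC), each searched on both strands, so that a reverse complement such as TTCAAA is marked too. In Mcm5 a pair of E2F matches overlap and run together. Top2a (topoisomerase II alpha, which untangles sister chromatids) lies at chr11:99024140-99024439, minus strand, Cdk1 (the mitotic kinase) at chr10:69352863-69353162, minus strand, Cenpf (a kinetochore protein) at chr1:189688037-189688336, minus strand and Mcm5 (a subunit of the replicative helicase) at chr8:75109259-75109558, plus strand.
Top2a: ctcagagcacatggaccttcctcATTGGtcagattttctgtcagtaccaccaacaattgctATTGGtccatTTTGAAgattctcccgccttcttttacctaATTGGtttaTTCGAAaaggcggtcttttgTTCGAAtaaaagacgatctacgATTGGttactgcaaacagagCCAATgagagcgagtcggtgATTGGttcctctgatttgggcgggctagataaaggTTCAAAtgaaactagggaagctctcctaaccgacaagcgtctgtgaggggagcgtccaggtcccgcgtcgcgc
Cdk1: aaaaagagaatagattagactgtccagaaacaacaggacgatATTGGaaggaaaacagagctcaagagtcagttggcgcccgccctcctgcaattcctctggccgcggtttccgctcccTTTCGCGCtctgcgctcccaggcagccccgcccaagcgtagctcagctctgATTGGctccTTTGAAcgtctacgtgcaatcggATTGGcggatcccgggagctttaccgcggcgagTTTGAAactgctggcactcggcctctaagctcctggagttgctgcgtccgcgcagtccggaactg
Cenpf: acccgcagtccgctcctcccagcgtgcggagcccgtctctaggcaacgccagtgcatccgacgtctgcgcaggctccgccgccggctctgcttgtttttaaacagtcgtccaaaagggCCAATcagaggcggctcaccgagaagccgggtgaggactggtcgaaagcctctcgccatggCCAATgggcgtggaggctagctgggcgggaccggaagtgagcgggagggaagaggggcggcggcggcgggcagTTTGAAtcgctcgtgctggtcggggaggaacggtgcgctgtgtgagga
Mcm5: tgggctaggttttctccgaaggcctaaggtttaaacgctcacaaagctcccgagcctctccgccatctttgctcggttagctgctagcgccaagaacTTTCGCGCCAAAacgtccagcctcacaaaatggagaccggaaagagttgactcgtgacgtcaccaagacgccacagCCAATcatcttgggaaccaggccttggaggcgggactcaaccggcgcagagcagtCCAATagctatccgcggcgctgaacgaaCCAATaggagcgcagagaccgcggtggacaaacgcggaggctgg

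Promoters were matched for 34 of the 45 members, and Gins1, Gins2, Ccnd1, Ccnd2, Ccne2, Ccna2, Kif20a, Foxm1, Mcm4, Aurkb and Tpx2 had none in the table. A CCAAT box stood in 25 of the 34 (73.5%) and in 37.9% of 27025 promoters of that length. A CHR stood in 17 (50%) of the members against 19.4% of all promoters, and an E2F site in 8 (23.5%) against 2.32%. The shares differed by role: 6 of 8 replication promoters held an E2F site, against 0 of 10 in the chromosome and spindle group and 1 of 8 in the mitotic group, whose member with the site was Cdk1. The CHR stood in 8 of 10 and 6 of 8 promoters of those 2 groups and in 3 of 8 replication promoters. Of the 12 matched members called lower in a BMDM comparison 7 held a CHR and 1 an E2F site, and of the 22 others 10 and 7 did. These letters are a description of the windows and not bound sites.

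Depth was 16629659 to 25653814 reads on genes in the BMDM libraries and 14137666 to 34124049 in those of RPE. The Mertk transcript measured 2414 to 2881 normalized counts in BMDMs of B6 WT mice, and 847 to 883 from Mertk-/-V1 and 651 to 723 from Mertk-/-V3 mice, while Mertk-/-V2 stood above B6 WT at 3532 to 3589. In RPE it measured 2638 to 3924 for B6 WT, 919 to 1717 for Mertk-/-V1, 3565 to 5311 for Mertk-/-V2 and 444 to 1106 for Mertk-/-V3. The gene count includes exons outside the deletion, so it does not check the Mertk-/-V2 label. BMDM libraries held the macrophage genes Csf1r and Adgre1 at medians of 28495 and 15903 normalized counts, with Krt5, Krt15 and Rpe65 at 0 in all 12. RPE libraries held Rpe65 at a median of 64370 but also keratins of stratified surface epithelium, Krt5 at a median of 45841 and Krt15 at 61918, and rhodopsin, the rod photopigment, at 69500, so transcripts of other cells were present. In bulk samples fewer cells of a type and less RNA per cell cannot be told apart.

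Corrected for exon length and library size (RPKM), the members were far higher in BMDMs. In B6 WT libraries 44 of the 45 stood higher in BMDMs than in RPE without overlap, as did 29.7% of the 19481 genes whose mean normalized count reached 10 in either tissue. The members' median ratio was 9.77, with a highest ratio of 18.3 for Mcm3, a helicase subunit. Mki67, the nuclear proliferation antigen, measured 65.8 ± 3.34 RPKM (SD, n = 3) in BMDMs and 5.99 ± 3.72 (SD, n = 6) in RPE. Cyclin D1 (Ccnd1) held the highest level per length of the 45 in both tissues, at 157 ± 2.84 and 30.9 ± 4.55 RPKM. Cyclin D2 (Ccnd2) was the exception in direction, at 13.6 ± 0.401 RPKM in BMDMs and 24 ± 2.56 in RPE. The tables were normalized separately, so these levels carry no test.

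**Figure D1:**
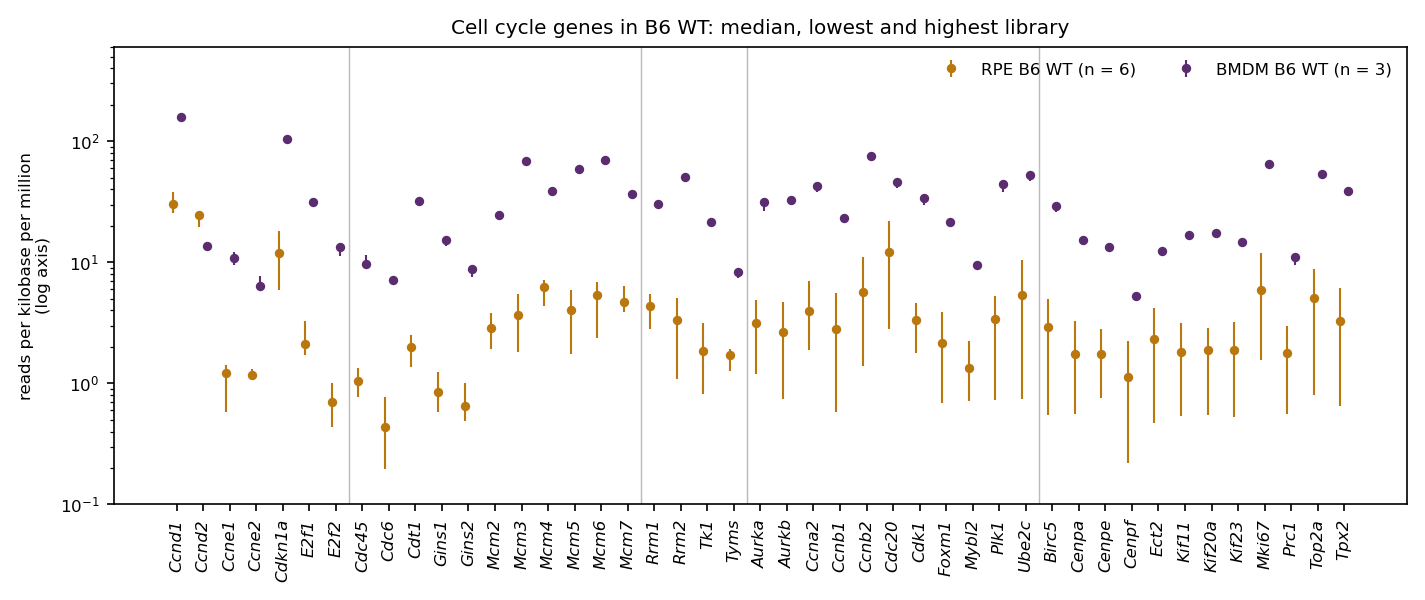
Levels of the 45 members in B6 WT libraries, as RPKM (y axis, log scale); points are medians and bars run from the lowest to the highest library of RPE (n = 6) and BMDM (n = 3). The BMDM points lie above the RPE points for 44 members, and Ccnd2 is the exception.

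In BMDMs a minority of the members fell in each knockout, by small amounts, and most of those that fell act in mitosis. By limma on log2(normalized count + 1), with Benjamini-Hochberg adjustment over 13420 genes, 13 of the 45 members fell in Mertk-/-V1 (28.9%, where 3.15% of all genes tested were called lower), 5 fell in Mertk-/-V2 (11.1%, against 2.36%) and 4 in Mertk-/-V3 (8.89%, against 0.633%). None rose in these 3 comparisons. Median log2 fold changes of the 45 were -0.12, -0.11 and -0.19, and 35 members were negative in all 3 knockouts. That count of signs has no background, since the share of all genes was not counted and the knockouts share their B6 WT libraries. No member reached the fold of a DEG, a log2 fold change of 1.25. The topoisomerase Top2a and the spindle assembly factor Tpx2 fell in all 3 knockouts. Birc5, Cdkn1a, Cenpe and Cenpf fell in 2 of them, and Aurka, Ccna2, Cdc20, Cdk1, Plk1, Rrm1, Tyms and Ube2c in 1.

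The counts rest on few libraries. For Mertk-/-V1 the count was 3 without B6 WT replicate 1, B6 WT replicate 2 or Mertk-/-V1 replicate 3 and 5 without Mertk-/-V1 replicate 1; for Mertk-/-V2 it was 17 without Mertk-/-V2 replicate 3 and 9 without B6 WT replicate 3, and 1 or 2 without any one of the other libraries of that comparison; for Mertk-/-V3 it was 0 without B6 WT replicate 1 or Mertk-/-V3 replicate 1, 1 or 2 without B6 WT replicate 2 or the other two Mertk-/-V3 libraries and 9 without B6 WT replicate 3. An unadjusted p under 0.05 was reached by 21, 19 and 29 members, against 23.6%, 21.4% and 15.9% of all genes. The number of members whose 3 knockout libraries all lay below all B6 WT libraries was 20 in Mertk-/-V1 (44.4%, against 15.4% of all genes), 10 in Mertk-/-V2 (22.2%, against 12.7%) and 35 in Mertk-/-V3 (77.8%, against 13.2%).

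**Figure D2:**
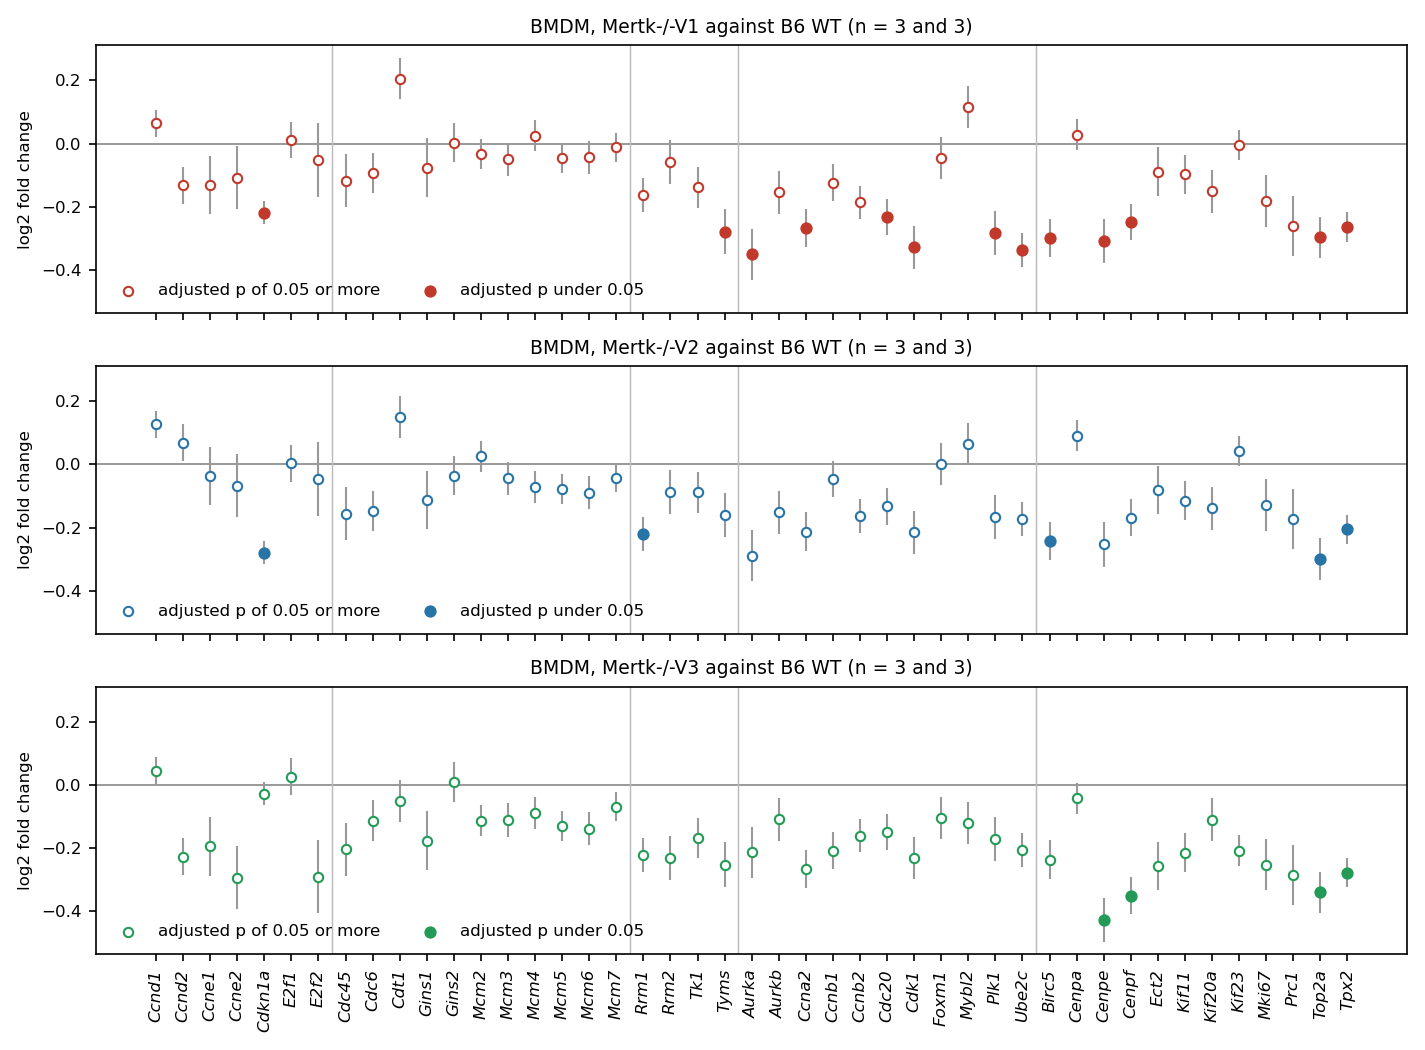
Log2 fold change of each of the 45 members in BMDMs of the 3 knockouts (panels from top: Mertk-/-V1, then V2, then V3) against B6 WT (n = 3 per group), with bars of 1 SE from the limma fit. Filled points passed an adjusted p of 0.05, 13, 5 and 4 of them, and 35 members lie below 0 in all 3 panels.

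Of the 7 G1 regulators, 1 was called in any knockout, and it was an inhibitor of the cycle. Cdkn1a, which encodes the CDK inhibitor p21, measured 7648, 7731 and 7454 normalized counts from B6 WT, 6523, 6523 and 6586 from Mertk-/-V1, 6165, 6229 and 6427 from Mertk-/-V2 and 7328, 7537 and 7531 from Mertk-/-V3. Every Mertk-/-V1 and Mertk-/-V2 library lay below every B6 WT library (log2 fold change -0.22, SE 0.04, adjusted p = 0.00333 for V1; log2 fold change -0.28, SE 0.04, adjusted p = 0.000779 for V2), whereas Mertk-/-V3 overlapped B6 WT (log2 fold change -0.03, SE 0.04, adjusted p = 0.752). p21 restrains the cycle, unlike the other members of its group. Ccnd1 measured 15412, 14896 and 15051 normalized counts from B6 WT, 16544, 15531 and 15373 from Mertk-/-V1, 15935, 16865 and 16723 from Mertk-/-V2 and 15702, 15789 and 15309 from Mertk-/-V3, and the Mertk-/-V2 libraries lay above B6 WT without passing the test (log2 fold change 0.13, SE 0.04, adjusted p = 0.107). Ccnd2 measured 2688, 2559 and 2565 normalized counts from B6 WT, 2529.6, 2403 and 2210.2 from Mertk-/-V1, 2602, 2616 and 2988 from Mertk-/-V2 and 2225, 2205 and 2246 from Mertk-/-V3. Its Mertk-/-V1 and Mertk-/-V3 libraries lay below those of B6 WT, again without passing the test. Cyclin E1 (Ccne1), the partner of CDK2 at the entry into S phase, measured 594, 649 and 522 normalized counts from B6 WT, 532, 542 and 531 from Mertk-/-V1, 501, 568 and 654 from Mertk-/-V2 and 524, 509 and 502 from Mertk-/-V3, and all 3 knockouts overlapped B6 WT. E2f1, the transcription factor of the G1-to-S switch, measured 2026, 1967 and 2046 normalized counts from B6 WT, 2015, 1959.6 and 2118 from Mertk-/-V1, 2171, 2078 and 1818 from Mertk-/-V2 and 2016, 2073 and 2058 from Mertk-/-V3 and overlapped throughout. Ccne2 and E2f2 were not called in any of the 3 knockouts.

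None of the 11 replication genes was called in any knockout in BMDMs. Mcm5 measured 4845, 4732 and 4668 normalized counts from B6 WT, 4523, 4804 and 4490.2 from Mertk-/-V1, 4194, 4521 and 4805 from Mertk-/-V2 and 4376, 4359 and 4287 from Mertk-/-V3. The B6 WT range of 4668 to 4845 was met by libraries of Mertk-/-V1 and Mertk-/-V2, while Mertk-/-V3 lay below it without passing the test (log2 fold change -0.13, SE 0.05, adjusted p = 0.207). Over the group the log2 fold changes in Mertk-/-V3 ran from -0.20 for Cdc45, a helicase cofactor, to 0.01 for Gins2, a subunit of the GINS complex. No replication gene lay below B6 WT in every library of Mertk-/-V1 or Mertk-/-V2, and 7 of 11 did in Mertk-/-V3. Cdt1, the licensing factor, had every Mertk-/-V1 library above B6 WT (log2 fold change 0.21, SE 0.07, adjusted p = 0.0741).

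Of the 4 nucleotide supply genes, all 4 lay below B6 WT in every library of Mertk-/-V3, 3 did so in Mertk-/-V1 and 1 did in Mertk-/-V2. Rrm1, the large subunit of ribonucleotide reductase, measured 6785, 7152 and 6811 normalized counts from B6 WT, 5982, 6428 and 6140.3 from Mertk-/-V1, 5593, 5820.3 and 6401 from Mertk-/-V2 and 5610.0, 6141 and 6053 from Mertk-/-V3. Every knockout library was below the lowest B6 WT library, and only the Mertk-/-V2 difference passed the test (log2 fold change -0.22, SE 0.05, adjusted p = 0.0339). Rrm2, the small subunit, measured 2878, 3004 and 2805 normalized counts from B6 WT, 2634, 2886 and 2829 from Mertk-/-V1, 2526, 2562 and 3128 from Mertk-/-V2 and 2374, 2486 and 2540.5 from Mertk-/-V3, and was below B6 WT in every library of Mertk-/-V3 alone, with adjusted p = 0.124. Tyms, which makes thymidylate, fell in Mertk-/-V1 (log2 fold change -0.28, SE 0.07, adjusted p = 0.0324), while Tk1, thymidine kinase, was not called.

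Among the mitotic kinases, cyclins and their regulators, 6 of 11 fell in Mertk-/-V1, and none was called in Mertk-/-V2 or Mertk-/-V3. Ube2c, the ubiquitin-conjugating enzyme of the anaphase-promoting complex, measured 2802, 2775 and 2521 normalized counts from B6 WT, 2188, 2084 and 2138 from Mertk-/-V1, 2274, 2484 and 2418 from Mertk-/-V2 and 2464, 2217 and 2331 from Mertk-/-V3. No knockout library reached the lowest B6 WT value, and the difference was largest in Mertk-/-V1 (log2 fold change -0.34, SE 0.05, adjusted p = 0.003). Cdk1 measured 3519, 3377 and 3014 normalized counts from B6 WT, 2611, 2682 and 2587 from Mertk-/-V1, 2545, 2927 and 3073 from Mertk-/-V2 and 2865, 2738 and 2823 from Mertk-/-V3, and fell in Mertk-/-V1 by 20.3% (log2 fold change -0.33, SE 0.07, adjusted p = 0.0123). Cyclin B1 (Ccnb1) measured 2013, 1987 and 1868 normalized counts from B6 WT, 1676, 1892 and 1824 from Mertk-/-V1, 1806, 1853 and 2026 from Mertk-/-V2 and 1623, 1691 and 1764 from Mertk-/-V3. Libraries of Mertk-/-V1 and Mertk-/-V2 overlapped B6 WT, those of Mertk-/-V3 lay below it, and none of the 3 differences passed the test. The other 4 called in Mertk-/-V1 were Aurora kinase A (Aurka, -0.35), Polo-like kinase 1 (Plk1, -0.28), cyclin A2 (Ccna2, -0.27) and the APC/C activator Cdc20 (-0.23), given as log2 fold changes. Foxm1 and Mybl2, transcription factors of G2 and mitosis genes, were at -0.05 and 0.12 in Mertk-/-V1 and were not called.

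Both members that fell in all 3 knockouts belong to the chromosome, spindle and cytokinesis group. Top2a measured 9910.3, 10018 and 9309 normalized counts from B6 WT, 7594, 8298 and 7922 from Mertk-/-V1, 7404, 7475 and 8965 from Mertk-/-V2 and 7452, 7877 and 7774 from Mertk-/-V3. All 9 knockout libraries were below the lowest B6 WT library, and the differences were -0.30, -0.30 and -0.34 on the log2 scale (adjusted p = 0.0173, 0.0232 and 0.027). Tpx2 measured 3773, 3650.0 and 3419 normalized counts from B6 WT, 2947, 3060.4 and 3017 from Mertk-/-V1, 2988, 3124 and 3291 from Mertk-/-V2 and 2966, 2937 and 3033 from Mertk-/-V3. It was likewise below B6 WT in all 9, with log2 fold changes of -0.26, -0.21 and -0.28 (adjusted p = 0.00548, 0.026 and 0.0118). Birc5, survivin of the chromosomal passenger complex, measured 2118, 1997 and 1821 normalized counts from B6 WT, 1589, 1659 and 1572 from Mertk-/-V1, 1547, 1703 and 1765 from Mertk-/-V2 and 1729, 1612 and 1689.6 from Mertk-/-V3. It fell in Mertk-/-V1 (log2 fold change -0.30, SE 0.06, adjusted p = 0.0126) and Mertk-/-V2 (log2 fold change -0.24, SE 0.06, adjusted p = 0.0412).

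The kinetochore genes Cenpe and Cenpf fell in Mertk-/-V1 and Mertk-/-V3. Cenpe, the kinetochore motor CENP-E, measured 2403, 2334 and 2251 normalized counts from B6 WT, 1720.5, 2017 and 1917 from Mertk-/-V1, 1786, 1913 and 2181 from Mertk-/-V2 and 1680.0, 1761 and 1755 from Mertk-/-V3. The fall was 25.6% in Mertk-/-V3 (log2 fold change -0.43, SE 0.07, adjusted p = 0.0111) and was 19.2% in Mertk-/-V1 (adjusted p = 0.0198). Cenpf measured 1684, 1625 and 1689 normalized counts from B6 WT, 1382, 1518 and 1317 from Mertk-/-V1, 1499, 1381 and 1572 from Mertk-/-V2 and 1282, 1333 and 1305 from Mertk-/-V3. It fell by 21.6% in Mertk-/-V3 (log2 fold change -0.35, SE 0.06, adjusted p = 0.0117) and by 15.8% in Mertk-/-V1 (log2 fold change -0.25, SE 0.06, adjusted p = 0.0229). Mki67 measured 14262, 13179.9 and 13056 normalized counts from B6 WT, 11224, 13345 and 11246 from Mertk-/-V1, 11377, 11648 and 14178 from Mertk-/-V2 and 11249.6, 11560.1 and 11162 from Mertk-/-V3. Only Mertk-/-V3 lay wholly below B6 WT, and no Mki67 difference passed the test. In this group 11 of 12 members lay below B6 WT in every library of Mertk-/-V3, 7 in Mertk-/-V1 and 5 in Mertk-/-V2.

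The line with the donor-strain stretch was also set against the B6-derived lines. A contrast of Mertk-/-V1 with the average of both others called none of the 45 members (0.991% of all genes), with a median log2 difference of 0.01, a median SE of 0.05 and a smallest adjusted p of 0.236. At an unadjusted p under 0.05 there were 4 members, against 11.8% of all genes.

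Other genes of the cycle and p53 targets, 142 in all outside the donor-strain stretch, were read beside the members. Of 139 tested in BMDMs, 22 fell and 1 rose in Mertk-/-V1 (3.15% of all genes were called lower and 7.07% in either direction). There were 17 that fell in Mertk-/-V2 (2.36% of all genes) and 13 in Mertk-/-V3 (0.633%). Spindle checkpoint, kinetochore and condensin genes made up 15, 11 and 12 of these out of 50, and 0, 0 and 1 came from 34 genes of replisome and S phase, the 1 being the chromatin remodeller Hells (log2 fold change -0.41, SE 0.09, adjusted p = 0.0415). Pbk, a mitotic kinase, fell in all 3 knockouts, with log2 fold changes of -0.35, -0.34 and -0.39. The kinetochore genes Ndc80 and Spc25 fell in Mertk-/-V1 (-0.33 and -0.30), and the condensin genes Ncapg in Mertk-/-V2 (-0.41) and Smc4 in Mertk-/-V3 (-0.34), with alpha-tubulin Tuba1b in Mertk-/-V2 (-0.38).

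Of 21 genes of CDK inhibitors, pocket proteins, E2F and their partners 2 fell in each of Mertk-/-V1 (3.15% of all genes were called lower) and Mertk-/-V2 (2.36%). None fell in Mertk-/-V3 (0.633%), and the list medians were -0.04, -0.04 and -0.08. Cdkn1b, which encodes p27, fell in Mertk-/-V1 (-0.24) and Mertk-/-V2 (log2 fold change -0.50, SE 0.07, adjusted p = 0.00123), and Cdkn2d, which encodes p19, fell in both (-0.32 and -0.30). Of 19 p53 targets 1 fell and 1 rose in Mertk-/-V1 (3.15% of all genes were called lower and 7.07% in either direction). There were 2 that fell in Mertk-/-V2 (2.36% lower), and none was called in Mertk-/-V3 (1.17% in either direction). The list medians were -0.02, -0.04 and 0.09. These counts are too small to be read as a result about the list. The p53 targets that fell were Btg2, an antiproliferative gene (-0.57 and -0.81), and Phlda3 in Mertk-/-V2 (-0.33), while Plk2 rose in Mertk-/-V1 (log2 fold change 0.77, SE 0.15, adjusted p = 0.00877). Of the 15 genes of the CDK and cyclin list 4, 2 and 0 fell, beside 3.15%, 2.36% and 0.633% of all genes. Among them Ccnf, Cks1b and Cks2 fell in Mertk-/-V1 (-0.36, -0.25 and -0.34), and Ccng2 and Ccnd3 in Mertk-/-V2 (-0.46 and -0.27). Against the B6-derived lines, where 0.991% of all genes were called, only the kinetochore gene Cenpi was called (log2 fold change 0.35, SE 0.06, adjusted p = 0.00589). The mean log2 level of 12 macrophage marker genes was 13.94 to 14.06 for B6 WT BMDMs, 13.84 to 13.86 for Mertk-/-V1, 13.82 to 14.06 for Mertk-/-V2 and 13.87 to 13.90 for Mertk-/-V3, so it also lay lower without overlap in 2 of the knockouts. Of these 12 genes the complement gene C1qa was called, lower in Mertk-/-V1 and Mertk-/-V3 (log2 fold changes -0.39 and -0.31), and Cx3cr1, which was not called, ran from 106 to 2468 normalized counts over the libraries. The part of these cells in the members' differences was not tested. The 6 erythroid genes summed to at most 4.93 normalized counts in a library.

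**Figure D3:**
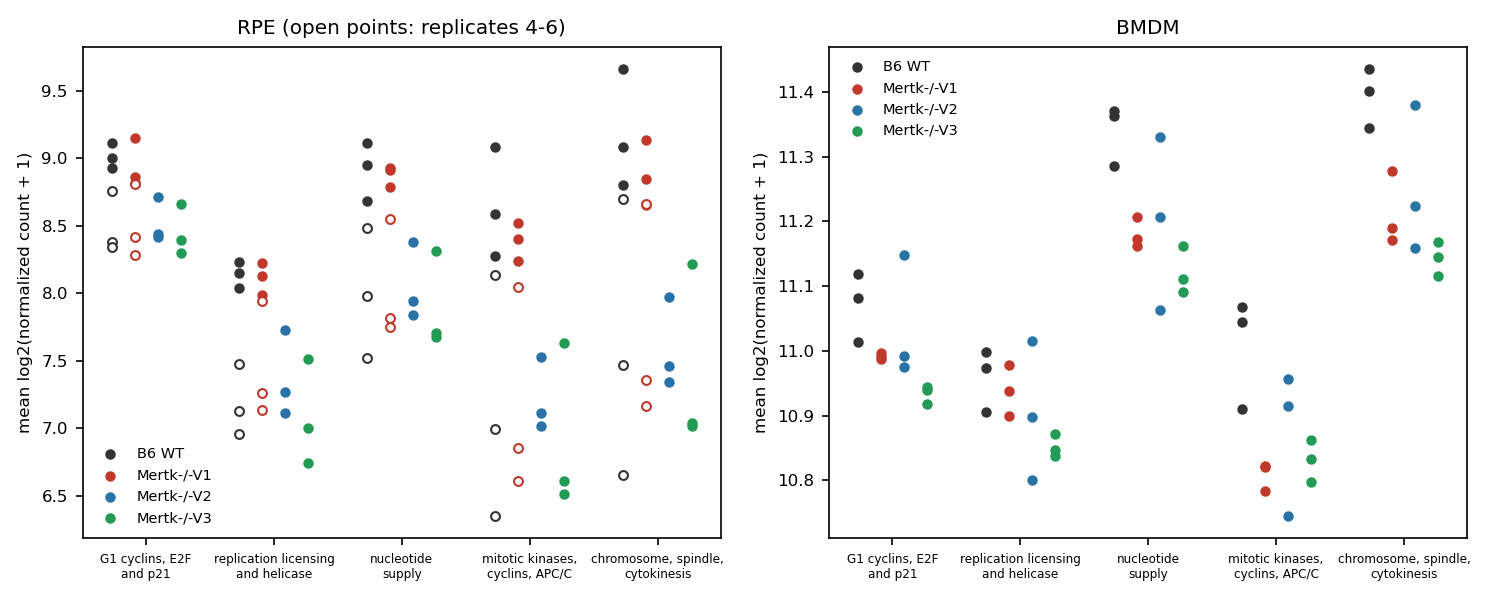
Mean log2(normalized count + 1) of each role group in every library, by genotype, with RPE on the left, where open points are replicates 4 to 6, and BMDMs on the right; the y axes have different ranges. The chromosome group of B6 WT spans 6.66 to 9.66 in RPE, and in BMDMs the knockout points of the mitotic group lie mostly below B6 WT.

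In RPE the members varied widely among libraries of 1 genotype. Mki67 ran from 383 to 3373 normalized counts in B6 WT and Top2a from 177 to 2234. The mean log2 level of the 45 was 8.48 to 9.0 in the replicates labelled 1 to 3 in both B6 WT and Mertk-/-V1 and 6.99 to 8.35 in those numbered 4 to 6. Replicate 4 of the 2 genotypes stood near the first set, at 8.25 and 8.35, and replicates 5 and 6 were at 6.99 to 7.46. In a fit with genotype as a term, 41 of the 45 were higher in replicates 1 to 3 (91.1%, where 21.8% of all 18795 genes were called higher) and none was lower. A log2 fold change of 1.25 was passed by 16 (1.97% of all genes), and the median was 1.11. With replicate 4 of both genotypes left out, a choice made after seeing the data, 42 members were called and the median was 1.45. In either direction 54.6% of all genes were called in that fit, and 40.8% in the fit with replicate 4. The labels give the numbers and not what separates the sets. Within B6 WT alone or Mertk-/-V1 alone, where each set has 3 libraries, none of the 45 was called by limma, and 0% of all genes were. Of the members 42 and 34 had an unadjusted p under 0.05 (31.9% and 36.6% of all genes), and the medians were 1.25 and 0.95.

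Mitotic and chromosome members differed most between the sets: all 11 and all 12 were called. The 16 past the larger fold were Mcm5, Birc5, Ccnb1, Ccnb2, Ube2c, Mki67, Cdc20, Kif11, Kif23, Tpx2, Cenpa, Plk1, Aurkb, Ect2, Cenpf and Top2a. A row named as a Ccnb2 pseudogene had a mean of 114 normalized counts in RPE and 6.37 in BMDMs. Sequences were not compared, so how reads divide between it and Ccnb2 in RPE is uncertain. Ccnb1 measured 336 to 659 in replicates 1-3 and 59.7 to 276 in replicates 4-6 of B6 WT and Mertk-/-V1, without overlap (log2 fold change 1.69, SE 0.36, adjusted p = 0.0077). Mki67 measured 1467 to 3373 in replicates 1-3 and 383 to 1735 in replicates 4-6 (log2 fold change 1.5, SE 0.36, adjusted p = 0.0097), and Top2a 944 to 2234 in replicates 1-3 and 177 to 1216 in replicates 4-6 (log2 fold change 1.55, SE 0.44, adjusted p = 0.0175). The sets of Mki67 overlapped through Mertk-/-V1 replicate 4, and those of Top2a through replicate 4 of both genotypes. Cdk1 measured 430.0 to 641 in replicates 1-3 and 132 to 427 in replicates 4-6, without overlap (log2 fold change 1.11, SE 0.23, adjusted p = 0.0076).

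Of the replication genes 10 of 11 were called, all higher in replicates 1 to 3. Mcm5 measured 532 to 693 in replicates 1-3 and 171 to 552 in replicates 4-6 (log2 fold change 1.27, SE 0.23, adjusted p = 0.00725), Mcm3 430.0 to 588 in replicates 1-3 and 166 to 472 in replicates 4-6 (log2 fold change 1.15, SE 0.21, adjusted p = 0.00725) and Mcm2 611 to 727 in replicates 1-3 and 317 to 602 in replicates 4-6 (log2 fold change 0.73, SE 0.13, adjusted p = 0.00725). Mcm2 alone of these 3 had sets that did not overlap. Cdc45 measured 91.5 to 128 in replicates 1-3 and 66.8 to 88.1 in replicates 4-6 (log2 fold change 0.69, SE 0.13, adjusted p = 0.00725), again without overlap. All 4 nucleotide genes were called, and Tyms, at 292 to 336 in replicates 1-3 and 147 to 265 in replicates 4-6, did not overlap (log2 fold change 0.68, SE 0.13, adjusted p = 0.00735). Rrm1, at 1291 to 1680 in replicates 1-3 and 758 to 1219 in replicates 4-6, did not overlap either. Nor did Tk1, at 273.1 to 463 in replicates 1-3 and 104 to 270.4 in replicates 4-6. Rrm2 overlapped by a narrow margin, at 273 to 385 in replicates 1-3 and 73.8 to 274 in replicates 4-6 (log2 fold change 1.17, SE 0.26, adjusted p = 0.00786).

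G1 regulators were the least uniform, with 4 of 7 called. Ccnd1 measured 3672 to 4953 in replicates 1-3 and 1668 to 3593 in replicates 4-6, without overlap (log2 fold change 0.66, SE 0.12, adjusted p = 0.00725), and Cdkn1a measured 1114 to 1905 in replicates 1-3 and 458 to 1136 in replicates 4-6 (log2 fold change 1.05, SE 0.24, adjusted p = 0.00827). E2f1 measured 163 to 281 in replicates 1-3 and 83.2 to 198 in replicates 4-6 (log2 fold change 0.52, SE 0.19, adjusted p = 0.0479). Cdkn1a and E2f1 overlapped between the sets. The fourth was E2f2. Ccnd2, at 5039.8 to 6427 in replicates 1-3 and 3561 to 6242 in replicates 4-6, Ccne1, at 84.4 to 137 in replicates 1-3 and 37.7 to 119 in replicates 4-6, Ccne2 and the GINS subunit Gins1 were not called, with log2 differences of 0.18, 0.45, -0.23 and 0.64. Among the other cell cycle genes 88 of 140 were higher, where 21.8% of all genes were called higher and 40.8% in either direction. The 4 that were lower were the origin kinase Cdc7, Spc25, Cit and Rb1, which were named after their values were seen. Genes far up in their lists were the kinetochore gene Spc24 (1.71), the CDK phosphatase Cdkn3 (1.79), the epigenetic regulator Uhrf1 (1.41), the exonuclease Exo1 (1.27), Cks2 (1.30) and the p53 target Pmaip1 (1.31).

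Markers of some other cells moved with the sets. Surface epithelium genes, 12 in number, had a mean log2 level of 12.93 to 13.50 in replicates 1 to 3 and of 11.24 to 12.83 in replicates 4 to 6, where replicate 4 held 12.81 and 12.83. The listed keratin Krt12 did not follow this in B6 WT, with means of 2351 normalized counts in replicates 1 to 3 and 3728 in replicates 4 to 6. In Mertk-/-V1 its means were 17549 and 3715. The 10 rod genes were all lower in replicates 1 to 3, with mean log2 levels of 11.01 to 12.72 against 12.81 to 15.33, the lowest of these again in replicate 4. Of the erythroid genes 6 of 6 were higher, and of the pigment epithelium markers 6 of 10. In this fit 21.8% of all genes were called higher and 40.8% in either direction. Mean log2 levels of macrophage genes overlapped, at 7.95 to 8.72 in replicates 1 to 3 and 7.56 to 8.75 in replicates 4 to 6. Those of the lymphocyte and dendritic cell genes overlapped too. The surface epithelium list was chosen after its high levels had been seen, and the part of these cells in the set difference was not tested.

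**Figure D4:**
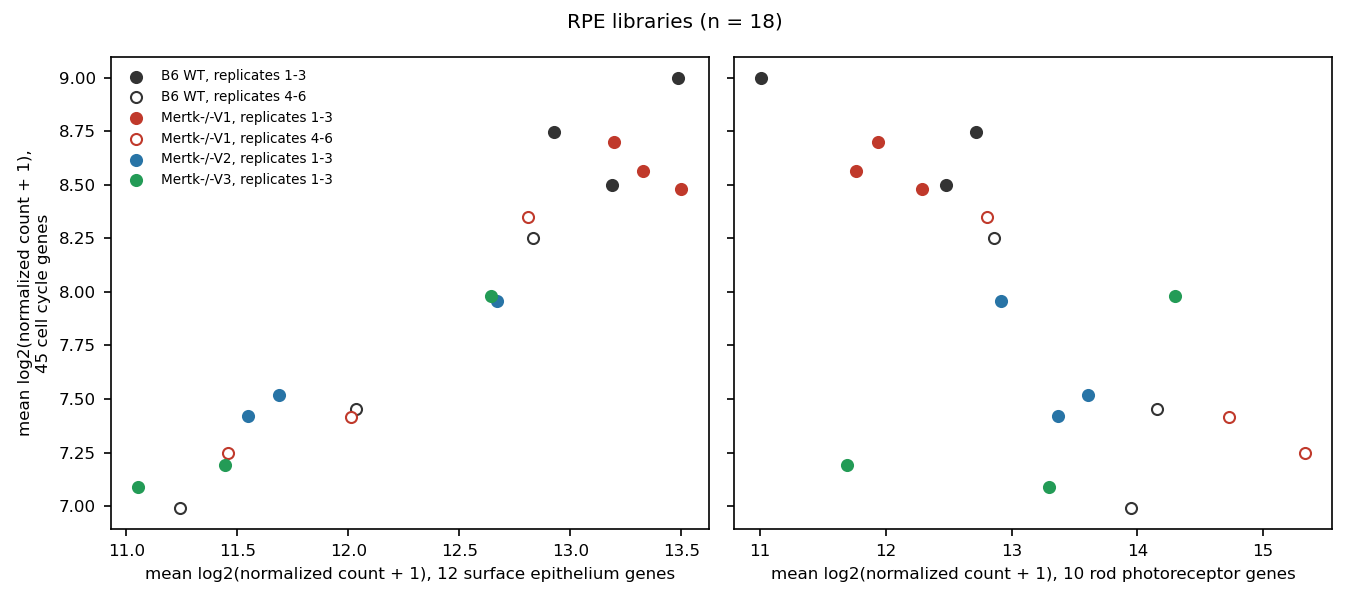
Mean log2 level of the 45 members in each of the 18 RPE libraries against the mean log2 level of 12 surface epithelium genes and of 10 rod genes. Replicates 1 to 3 (filled points) of the B6 WT and Mertk-/-V1 groups lie at 8.48 to 9.0 on the y axis and 12.93 to 13.50 on the epithelium axis.

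Between genotypes no member was called in RPE by unweighted limma, edgeR or DESeq2 on all libraries with genotype as the only term. Mertk-/-V1 against B6 WT gave a median log2 fold change of -0.03 (0.388% of all 18832 genes were called), a median SE of 0.37 and a smallest adjusted p of 0.731. Mertk-/-V2 gave a median of -0.55 (0.069% of all genes) and Mertk-/-V3 one of -0.74 (0.069%), with 44 of 45 members negative in each. The share of all genes that were negative was not counted, so these signs have no background. The smallest adjusted p was 0.900 in Mertk-/-V2 and 0.449 in Mertk-/-V3. Mertk-/-V1 against the mean of the other two was at a median of 0.66 (0.207% of all genes were called). At an unadjusted p under 0.05 there were 1, 1, 5 and 6 members in these 4 comparisons, against 6.81%, 5.47%, 11.1% and 9.56% of all genes. With array quality weights and genotype as the only term, 7 members were called in Mertk-/-V2 (4.57% of all genes) and 43 in Mertk-/-V3 (66.9%). With the same weights 42 were called in Mertk-/-V1 against the mean of the other two (28.9%) and none against B6 WT (0.802%). The call also changed with the replicate number as a block: 25 members were then lower in Mertk-/-V2 (3.75% of all genes were called), 40 lower in Mertk-/-V3 (29.8%) and 39 higher in Mertk-/-V1 than in the mean of the other two (12.4%), and none was called in Mertk-/-V1 against B6 WT (0.696%). Same-numbered libraries deviated together in all 6 pairs of B6 WT and Mertk-/-V1 but in 1 of 3 pairs of B6 WT with Mertk-/-V2 and 1 of 3 with Mertk-/-V3. Other-numbered pairs of B6 WT and Mertk-/-V1 did so in 11 of 30. These mix pairs within a replicate set and pairs across the sets, so the replicate number cannot be told apart from the set.

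The surface epithelium genes had mean log2 levels of 11.24 to 13.48 for B6 WT, 11.46 to 13.50 for Mertk-/-V1, 11.55 to 12.67 for Mertk-/-V2 and 11.05 to 12.64 for Mertk-/-V3. Mitotic and chromosome members ranged widely within B6 WT RPE. Top2a measured 177 to 2234 (median 1210.3) normalized counts from B6 WT, 306 to 1538 (median 1047) from Mertk-/-V1, 334, 413 and 597 from Mertk-/-V2 and 877, 241 and 256 from Mertk-/-V3. Mki67 measured 383 to 3373 (median 1583) normalized counts from B6 WT, 470.2 to 2277 (median 1601) from Mertk-/-V1, 501, 589 and 974 from Mertk-/-V2 and 1229, 464 and 548 from Mertk-/-V3. All 3 knockouts lay within the B6 WT range of both genes, and the Top2a difference in Mertk-/-V3 was not called (log2 fold change -1.13, SE 0.72, adjusted p = 0.504). Cdk1 measured 215 to 641 (median 437) normalized counts from B6 WT, 132 to 549 (median 383) from Mertk-/-V1, 310.2, 278 and 348 from Mertk-/-V2 and 305, 177 and 264 from Mertk-/-V3. Ccnb1 measured 59.7 to 659 (median 315) normalized counts from B6 WT, 71.7 to 402 (median 289) from Mertk-/-V1, 126, 126 and 132 from Mertk-/-V2 and 175, 62.3 and 84.8 from Mertk-/-V3. Both had every Mertk-/-V2 and Mertk-/-V3 library below the B6 WT median, with adjusted p = 0.504 and 0.456 in Mertk-/-V3. Mcm5 measured 171 to 657 (median 425) normalized counts from B6 WT, 214 to 693 (median 542) from Mertk-/-V1, 240.1, 240.2 and 418 from Mertk-/-V2 and 324, 152 and 194 from Mertk-/-V3. Rrm2 measured 73.8 to 385 (median 245) normalized counts from B6 WT, 132 to 368 (median 290.2) from Mertk-/-V1, 122, 135 and 209 from Mertk-/-V2 and 211, 99.8 and 94.1 from Mertk-/-V3. Each of these had Mertk-/-V2 libraries inside the B6 WT range. Ccnd1 measured 2878 to 4953 (median 3866) normalized counts from B6 WT, 1668 to 3883 (median 3217) from Mertk-/-V1, 4180.1, 3370.0 and 3325 from Mertk-/-V2 and 2547, 2893 and 3287 from Mertk-/-V3. Ccnd2 measured 5039.8 to 6242 (median 5975) normalized counts from B6 WT, 3561 to 6427 (median 5706) from Mertk-/-V1, 6015, 6472 and 6383 from Mertk-/-V2 and 4371, 5274 and 6740.2 from Mertk-/-V3. Libraries of every knockout overlapped B6 WT for both D-type cyclins. Ccne1 measured 37.7 to 103 (median 85.5) normalized counts from B6 WT, 72.4 to 137 (median 95.6) from Mertk-/-V1, 33.8, 47.5 and 72.3 from Mertk-/-V2 and 126, 49.9 and 37 from Mertk-/-V3. E2f1 measured 142 to 281 (median 176) normalized counts from B6 WT, 83.2 to 213 (median 166) from Mertk-/-V1, 163, 131 and 169 from Mertk-/-V2 and 114, 111 and 157 from Mertk-/-V3. Cdkn1a measured 510.2 to 1824 (median 1125) normalized counts from B6 WT, 458 to 1905 (median 1021) from Mertk-/-V1, 553, 564 and 1006 from Mertk-/-V2 and 1003, 554 and 594 from Mertk-/-V3. All groups of these 3 genes overlapped B6 WT.

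The RPE result depended on which B6 WT and Mertk-/-V1 libraries were used. With the B6 WT and Mertk-/-V1 groups limited to replicates 1 to 3, Mertk-/-V3 had 40 members called lower (21.9% of all genes were called), with a median of -1.34, and Mertk-/-V1 against the mean of the B6-derived lines had 37 higher (11.5%), with a median of 1.02. Mertk-/-V2 had none called (0.156%) at a median of -1.12, and Mertk-/-V1 none (0.0698%) at -0.17. With only replicates 4 to 6, none of the 45 was called in any of the 4 (Mertk-/-V1, Mertk-/-V2 and Mertk-/-V3 against B6 WT, then Mertk-/-V1 against the mean of the other two), where 0.0632%, 0.0948%, 0.0158% and 0.1% of all genes were called, and the medians were 0.11, 0.05, -0.13 and 0.15. Top2a in Mertk-/-V3 went from -2.07 with the first set to -0.20 with the second. With the surface epithelium mean as a covariate, added after seeing the data, medians were -0.12, -0.02, -0.02 and -0.05 in the same order, and none of the 45 was called. The labels do not say which set the Mertk-/-V2 and Mertk-/-V3 samples belong to, so the genotype and the set cannot be told apart there.

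**Figure D5:**
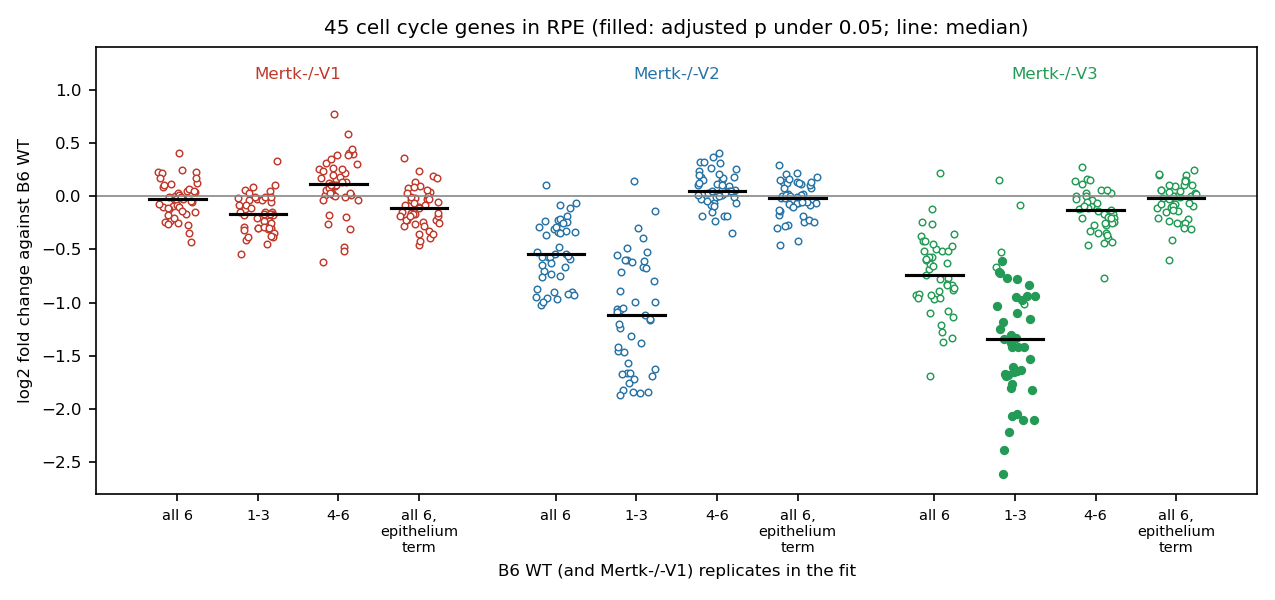
Log2 fold changes of the 45 members in RPE of each knockout against B6 WT, with all B6 WT and Mertk-/-V1 libraries, with replicates 1 to 3 only, with replicates 4 to 6 only and with the surface epithelium mean as a covariate. In Mertk-/-V3 the medians are -0.74, -1.34, -0.13 and -0.02.

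The tissue difference of the knockout effect was tested in 1 edgeR quasi-likelihood model over all 30 libraries. None of the 45 was called for Mertk-/-V1 (0.158% of 20873 genes), Mertk-/-V2 (0.0431%) or Mertk-/-V3 (0.0192%). The medians of the RPE effect minus the BMDM effect were 0.07, -0.54 and -0.59 on the log2 scale, and 0, 0 and 2 members had an unadjusted p under 0.05 (7.04%, 8.54% and 4.82% of all genes). Restricted to replicates 1 to 3 of RPE, 0, 11 and 30 members were called for the 3 knockouts in that order (0.226%, 1.34% and 6.74% of all genes were called), and with a replicate block 0, 5 and 24 (0.335%, 0.795% and 7.57%).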

How the data were processed

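RNA was measured by 150 bp paired-end sequencing in 18 RPE and 12 BMDM libraries. The authors used btrim for trimming, STAR for mapping (GRCm38) and DESeq2; the read counter, the annotation and the versions are not given in the sources used here. They deposited 1 table per tissue whose signal values are gene counts divided by a DESeq2 size factor, called normalized counts here, with 0 columns left unmapped to a sample. Whole reads were recovered for 100% of values (tolerance 0.01), giving 14137666 to 34124049 reads on genes per library. GENCODE vM21 (55480 of 55573 genes matched) gave exon lengths.

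Groups follow the tissue and genotype that the labels give. The donor strain of Mertk-/-V1 is 129P2. The test was limma 3.58.1 (R 4.3.3, lmFit and eBayes with trend) on log2(value + 1), 4 genotypes of a tissue in 1 model, genes with a mean of at least 10, Benjamini-Hochberg adjustment, and a call at an adjusted p under 0.05. This scale understates changes of low genes. A DEG also had a log2 fold change of at least 1.25. The replicate sets were compared in B6 WT and Mertk-/-V1 with genotype as a covariate. Tissue differences were tested with edgeR 4.0.16 (quasi-likelihood, TMM) on recovered reads. Scripts were tested on simulated counts. Alternatives were a pseudocount of 5, no filter, only the groups compared, quantile normalization, array weights, a replicate block, edgeR, DESeq2 1.42.0, the replicate sets and each library left out, and the surface epithelium covariate and the replicate sets without replicate 4 were added after seeing the data.

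Whether replicate numbers pair samples was checked by correlating deviations from group means. In RPE, same-numbered B6 WT and Mertk-/-V1 libraries correlated at 0.12 to 0.72 (6 of 6 pairs over 0.1). Other-numbered ones correlated at -0.71 to 0.74 (11 of 30 pairs over 0.1). The highest value came from within a set, B6 WT replicate 5 with Mertk-/-V1 replicate 6. The lowest came from across the sets, B6 WT replicate 1 with Mertk-/-V1 replicate 5. The main test did not pair libraries by number, and the replicate block was an alternative only. Every other combination of groups had pairs under 0.1, in BMDMs (-0.30 to 0.36) as in RPE (-0.46 to 0.59). No 2 libraries were copies of each other. The p-values measure the spread between the labelled biological replicates.

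The members and gene lists were chosen with earlier results of these data known. Values of every library are given for 11 exemplars (Mki67, Top2a, Cdk1, Ccnb1, Mcm5, Rrm2, Ccnd1, Ccnd2, Ccne1, E2f1 and Cdkn1a) and for up to 6 members with the smallest adjusted p per comparison, and up to 3 genes are named from each other list by the size of the fold change.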

Additional observations from a re-analysis of the deposited data

Results flagged for a closer look

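Among 90 pairs of a member and an RPE group of 6 libraries, 3 had a lowest or highest library farther from its neighbour than Dixon's 95% critical ratio allows; chance gives about 5%. Ccnd2 in B6 WT had its lowest value in replicate 2, at 5039.8 normalized counts, where the nearest library held 5917. Ccne2 in B6 WT was lowest in replicate 6, at 92.6 against 105. E2f1 in B6 WT was highest in replicate 2, at 281 against 192. All 3 genes belong to the G1 group, and none of their RPE genotype comparisons was called.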

How the results depend on the processing

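Numbers of members called are given against the main values. In BMDMs, the Mertk-/-V1 count of 13 became 20 with array weights (20.6% of all genes were called) and stayed within 1.5 times under the other tools and filters, and it ran from 3 to 14 when 1 library was left out. For Mertk-/-V2 the 5 became 2 without the low-value filter (1.28%), 1 with only the groups compared (0.515%), 3 with quantile normalization (4.25%), 10 with array weights (8.81%) and 9 with DESeq2 (7.92%), and 1 to 17 with 1 library left out. For Mertk-/-V3 the 4 became 18 with only the groups compared (4.17%), 30 with array weights (12.6%) and 11 with DESeq2 (3.48%), and 0 to 9 with 1 library left out. Mertk-/-V1 against the mean of the other two ran from 0 to 1. With a replicate block the counts were 10, 3 and 3 (4.21%, 2.27% and 0.574%).

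In RPE, array weights gave 7 for Mertk-/-V2, 43 for Mertk-/-V3 and 42 for Mertk-/-V1 against their mean (4.57%, 66.9% and 28.9% of all genes were called); the replicate block gave 25, 40 and 39 (3.75%, 29.8% and 12.4%); the replicate set as a term gave 0, 40 and 36 (0.138%, 25.2% and 9.71%); replicates 1 to 3 only gave 0, 40 and 37 (0.156%, 21.9% and 11.5%). The set term placed every Mertk-/-V2 and Mertk-/-V3 library with replicates 1 to 3 by its number, although the labels do not give their set. Only B6 WT and Mertk-/-V1 hold replicates 4 to 6. The set term, the block and the fit of replicates 1 to 3 are therefore not independent alternatives. The main counts of 0 held with every library left out in turn (0 to 0). The set difference of 41 became 0 in B6 WT libraries alone and 0 in those of Mertk-/-V1, where 0% of all genes were called in each fit. The tissue difference became 5 and 24 with a replicate block (0.795% and 7.57%), and 11 and 30 with RPE replicates 1 to 3 only (1.34% and 6.74%), for Mertk-/-V2 and Mertk-/-V3, and stayed at 0 with each library left out (0 to 0). The causes were not tested. Of the named members' values under alternatives, 2197 kept sign and side of the threshold, 81 lost the call and 108 gained one. Values called neither before nor after changed sign in 77 cases with 1 library left out and in 52 cases under the other alternatives. The RPE median of Mertk-/-V2 turned from -0.55 to 0.05 with replicates 4 to 6 only, that of Mertk-/-V1 from -0.03 to 0.11 (0.03 with array weights), and that of Mertk-/-V1 against the mean from 0.66 to -0.05 with the surface epithelium covariate. Where a genotype has 3 libraries, depth was at least 16476097 reads, and precision is limited by the spread between libraries.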
